A study of Mus musculus with 6 samples.

Results

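Mmp3 Cxcl14 fibroblasts are lung fibroblasts that carry the transcription factor Tcf21 and the matrix protein nephronectin (Npnt), both usual in alveolar fibroblasts. They also carry Mmp3, which was found in part of the fibroblasts of the adventitia. They were chosen by raw counts of unique molecular identifiers (UMIs): at least 1 UMI each of Pdgfra, Tcf21, Npnt and Cxcl14, at least 2 UMIs of Mmp3, and no UMI of Pi16, Ccl11, Cdh5 or Ptprc. The rule found 937 cells among 88616 cells past the quality limits. They made up 6.53% of the 14349 Tcf21 Npnt fibroblasts, which are the cells that meet the rule whatever their Mmp3 and Cxcl14 counts. Every one of the 6 mice contributed: 135, 194 and 126 cells in the 3 p16-DTR-labelled libraries and 207, 107 and 168 cells in the 3 control libraries.

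The libraries came from lungs of male mice, 21 months of age, on a C57BL/6 background. Mice labelled p16-DTR were p16-CreERT2/R26-LSL-DTR, in which a Cre recombinase that tamoxifen activates, driven from the p16 (Cdkn2a) locus, unlocks a diphtheria toxin receptor, and control mice carried p16-CreERT2 alone. Tamoxifen was given on 5 days and, 2 weeks later, diphtheria toxin on 5 days, to mice of either genotype, and lungs were taken after 2 further weeks. The control mice thus had both agents and lacked the receptor. After Liberase digestion, 20000 CD45- and 9000 CD45+ sorted cells of each lung were mixed into 1 droplet library (GEM-X 3' chemistry, 1 mouse per library). The sort sets the share of fibroblasts among all cells, so shares below are taken within fibroblasts.

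Alveolar fibroblasts lie in the gas-exchange walls beside the epithelium, store lipid and supply growth factors to the alveolar type II cells. Adventitial fibroblasts form the sleeves around bronchi and larger vessels, lay down collagen bundles and carry Pi16, Dcn and complement genes. Mmp3 (stromelysin-1) is a secreted metalloproteinase that cuts proteoglycans and activates collagenases, and Cxcl14 is a chemokine made by many stromal cells. Mgp (matrix Gla protein, an inhibitor of calcification), Mfap5 (a microfibril protein) and Itgbl1 (a secreted integrin-beta-like protein) are matrix genes that fibroblasts of airway and vessel sheaths express.

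The rule itself set the levels of Mmp3 and Cxcl14, which are given as a description. Members held a median of 8 Mmp3 UMIs, and 562 of the 937 (60.0%) held 6 or more. Just inside the limit were 167 members with exactly 2 Mmp3 UMIs, and just outside were 454 cells with 1 and 109 cells that met every condition but Cxcl14. Mmp3 separated the members from the other Tcf21 Npnt fibroblasts, whereas a Cxcl14 UMI was found in 82.3% of those 14349 cells. The background was taken from Cdh5 endothelial cells without Pdgfra or Ptprc and Ptprc leukocytes without Pdgfra or Cdh5, which should lack the gene. At least 2 Mmp3 UMIs were found in 16 of 27222 such endothelial cells and in 13 of 21930 such leukocytes. Their median depths were 15066 to 16503 and 14603 to 16053 UMIs by library. Cells with Pdgfra beside Cdh5 or Ptprc are outside this background. Of all 2921 cells with at least 2 Mmp3 UMIs, 2131 held no Cdh5 or Ptprc UMI. Of the 2078 Pdgfra fibroblasts with at least 2 Mmp3 UMIs and no Cdh5 or Ptprc, 700 held Pi16 and 937 were members. Among the 1128 fibroblasts with Pi16 and without Npnt, used below as adventitial cells, 455 (40.3%) held at least 2 Mmp3 UMIs.

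The bases before the start sites of the protease and the chemokine gene that name the cells are shown because the cells are defined by these transcripts. They cover 250 bases upstream of the RefSeq start, 5′ to 3′ on the gene's strand (GRCm38.p6); capitals mark the AP-1 motif TGAGTCA and the TATA-box motif TATAAA.
Mmp3, chr9:7445572-7445821, plus strand: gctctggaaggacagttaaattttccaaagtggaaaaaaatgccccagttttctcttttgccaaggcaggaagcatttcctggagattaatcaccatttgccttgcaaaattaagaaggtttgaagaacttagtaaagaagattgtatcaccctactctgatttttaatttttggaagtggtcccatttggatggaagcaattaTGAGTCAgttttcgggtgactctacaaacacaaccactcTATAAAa
Cxcl14, chr13:56296552-56296801, minus strand: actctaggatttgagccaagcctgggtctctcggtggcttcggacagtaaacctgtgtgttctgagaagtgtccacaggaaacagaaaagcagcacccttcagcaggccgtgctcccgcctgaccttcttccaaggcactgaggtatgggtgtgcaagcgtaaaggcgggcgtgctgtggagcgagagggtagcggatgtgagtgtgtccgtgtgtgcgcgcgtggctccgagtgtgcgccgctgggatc
In the Mmp3 window TGAGTCA began 46 bases and TATAAA 7 bases before the RefSeq start. The Cxcl14 window held neither motif. Searched on both strands, TGAGTCA occurred in 4.46% and TATAAA in 12.4% of 32851 RefSeq promoter windows of that length. A match is a run of letters and was not tested as a binding site. The table did not list Mgp or Mfap5.

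Mgp, Mfap5 and Itgbl1 were not in the gate, although they were listed as markers of these cells with earlier results known, so their levels are a description. In CPM, the UMIs of a gene scaled to a total of 1000000 over the summed cells, Mgp stood at 13072, 13758 and 7877 in the members of the p16-DTR-labelled libraries and at 11088, 7490 and 9221 in those of the control libraries. Over all 6 libraries this was 10418 ± 2650 (SD, n = 6), against 3224 ± 732 in alveolar fibroblasts without Mmp3 and Cxcl14 and 5153 ± 1169 in those with Cxcl14 but no Mmp3. The level in the members was near the 11502 ± 3072 of Pi16 adventitial fibroblasts (Pdgfra and Pi16 present, Npnt absent) and the values of the 2 groups of cells overlapped. Mfap5 was at 310 ± 57.8 CPM in the members, between 139 ± 31.1 in the Cxcl14-positive alveolar cells and 574 ± 55.2 in the adventitial cells. Itgbl1 showed the same order, with 150 ± 28.4, 38.3 ± 7.33 and 360 ± 39.3 CPM. A UMI of all 3 genes was found in 45.9% ± 6.31 of members, in 13.9% ± 2.64 of the Cxcl14-positive alveolar cells and in 75.4% ± 6.08 of adventitial cells (SD, n = 6 libraries).

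**Figure D1:**
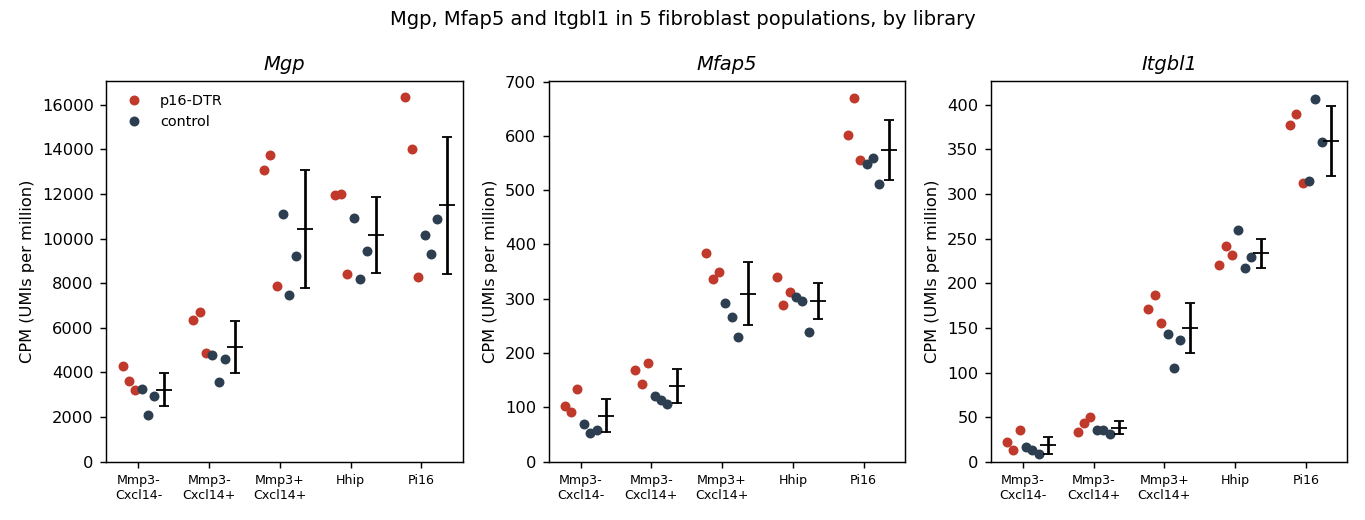
CPM of Mgp, Mfap5 and Itgbl1 (linear axes) in 5 fibroblast populations: Tcf21 Npnt cells without Mmp3 and without or with Cxcl14, the Mmp3 Cxcl14 fibroblasts, fibroblasts with at least 2 Hhip UMIs outside the gate, and Pi16 adventitial fibroblasts. Points are libraries, coloured by label, and bars are the mean ± SD over 6 libraries; for Mfap5 and Itgbl1 every library's members lie above its Mmp3-free cells and below its Pi16 cells.

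Neither the share of cells with all 3 genes nor the levels of Mgp and Mfap5 separated the members from fibroblasts of the airway sheath. Fibroblasts with at least 2 UMIs of Hhip, a hedgehog inhibitor that marks peribronchial fibroblasts, held all 3 genes in 52.8% ± 1.68 of cells. They had Mgp at 10160 CPM and Mfap5 at 296 CPM. Itgbl1, at 233 CPM, stood above its mean in the members. These Hhip cells had lower Mmp3 (287 CPM) and Npnt (831 CPM) than the members (953 ± 204 and 1823 ± 195 CPM), both of which the gate demands of members only.

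Among Cxcl14-positive Tcf21 Npnt cells the other genes were described by the number of Mmp3 UMIs per cell. Mgp averaged 5153 CPM in cells with 0 Mmp3 UMIs, 6774 with 1, 9644 with 2, 9601 with 3 to 5, 10039 with 6 to 19 and 11798 with 20 or more. Itgbl1 was at 38.3, 79.7, 152, 134, 150 and 163 CPM over the same classes. Ppp1r3a, a glycogen-targeting subunit of protein phosphatase 1, was at 30.6, 86.2, 140, 172, 126 and 162 CPM. The means of these 3 genes went up from 0 to 1 and to 2 UMIs, and above the limit they went up and down between classes. The alveolar list genes Scube2, Slc7a10 and Ces1d, and Fat3, which is on no list, had their lowest mean at 20 or more UMIs, with spreads over libraries that overlapped between neighbouring classes above the limit. Scube2, a secreted protein of alveolar fibroblasts, was at 495, 427, 310, 292, 289 and 226 CPM, the amino acid transporter Slc7a10 at 315, 255, 172, 165, 139 and 92.3 CPM, the carboxylesterase Ces1d at 547, 518, 395, 425, 382 and 334 CPM, and the giant cadherin Fat3 at 713, 534, 342, 357, 255 and 201 CPM. Tcf21, a gate gene, fell from 514 CPM at 0 to 289 CPM at 2 UMIs and was at 274 CPM at 20 or more. Median depth was similar across the classes (22797 to 25470 UMIs at 0 and 24209.5 to 28897 at 20 or more, by library). The genes other than the markers and Tcf21 were picked for this description after their values were seen, and no test was made.

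**Figure D2:**
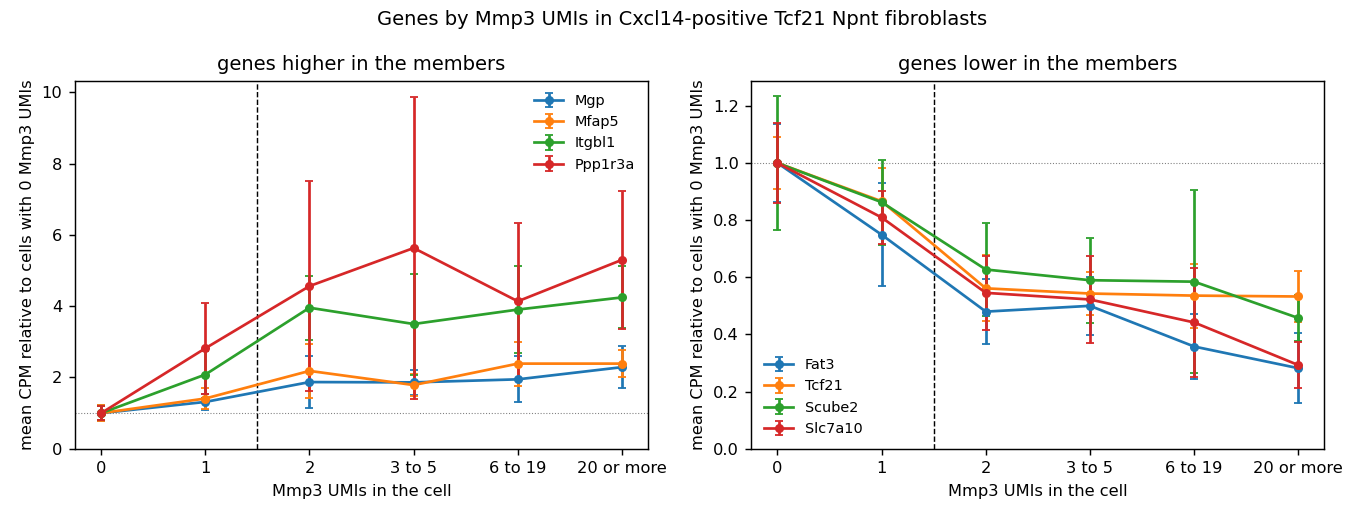
Mean CPM relative to cells with 0 Mmp3 UMIs (linear axis) against Mmp3 UMIs per cell, in Tcf21 Npnt fibroblasts with Cxcl14; error bars are the SD over 6 libraries and the dashed line marks the limit of the gate. Mgp, Mfap5, Itgbl1 and Ppp1r3a climb mostly between 0 and 2 UMIs, and Fat3, Scube2 and Slc7a10 are lowest at 20 or more.

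Each Pdgfra fibroblast was compared with its 15 nearest neighbours in its library, on 2000 variable genes without the gate and marker genes. Of the members' neighbours, 62.9% ± 3.56 (SD, n = 6 libraries) were Tcf21 Npnt cells without Mmp3, which make up 66.9% of all fibroblasts, and 3.49% ± 0.95 held Pi16, against 12.7% of all fibroblasts. Members were 17.8% ± 2.20 of the members' neighbours and 4.90% of all fibroblasts. By library the share of Mmp3-free cells around members was 57.8% to 67.9%, a range that takes in their share of all fibroblasts. Around the Mmp3-free cells themselves 84.5% ± 1.62 of neighbours were such cells and 2.74% ± 0.546 held Pi16. These shares describe the cells and were not tested.

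Against the 2371 alveolar fibroblasts that lacked both Mmp3 and Cxcl14, taken from the same mice, more genes of the collagen, elastic fibre, complement and NF-kB lists were higher than lower in the members, and more of the alveolar list were lower than higher. With edgeR's quasi-likelihood test on summed counts, mouse as a block and Benjamini-Hochberg adjusted p under 0.05, 4078 of 12277 genes differed (33.2%), 2252 higher (18.3%) and 1826 lower (14.9%). Against the 1128 Pi16 adventitial fibroblasts, 7094 of 12062 genes differed (58.8%), 3508 higher (29.1%) and 3586 lower (29.7%). The gate chose all 3 populations by their counts, so genes that go with Npnt, Pi16 or Mmp3 had to differ. The tests say that a difference recurred over the 6 mice and do not show that the members are a type of their own.

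The comparison cells without Cxcl14 carried RNA of other cells. The 8 epithelial markers summed to 2134 CPM (1455 to 2941 by library) in them against 107 CPM (77.7 to 149) in the members, and the 8 smooth muscle markers to 639 CPM against 227. The 8 lower genes with the largest fold change were Myh11, Sftpc, Cxcl15, Sftpb, Sftpa1, Cbr2, Lyz2 and Ank3, mostly genes of type II cells, club cells, macrophages and smooth muscle, and their part in the other differences was not tested. Sftpc, the surfactant protein of type II cells, was at 1949 ± 563 CPM in the comparison cells, at 64.4 ± 18.8 in the members and at 194 ± 176 in the 10413 alveolar cells with Cxcl14. The counts for the gene groups below are therefore also given against those Cxcl14-positive cells, a comparison added after the data were seen, in which 3764 of 14123 genes differed (26.7%), 2085 higher (14.8%) and 1679 lower (11.9%). Median depth was 24632 to 28466.5 UMIs in the members, 19356 to 20451 in the Cxcl14-free cells, 22797 to 25470 in the Cxcl14-positive cells and 30071 to 33107.5 in the adventitial cells.

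Of 20 alveolar fibroblast genes tested outside the gate, 5 were higher and 11 lower than in the Cxcl14-free cells, with a median log2 difference of -0.28 beside -0.01 over all genes, and 3 were higher and 13 lower against the Cxcl14-positive cells. Fgfr4, a receptor for fibroblast growth factors, was at 78.9 ± 8.36 CPM in the members and 207 ± 22.6 in the Cxcl14-free cells (log2 difference -1.37, SE 0.06, edgeR adjusted p = 4.95e-08). It was near absent from adventitial cells, at 0.946 ± 0.0697 CPM. Nebl, a nebulin-family actin-binding protein, was at 1716 ± 261 CPM in the members, 2670 ± 172 in the Cxcl14-free cells and 22.6 ± 3.49 in adventitial cells. Limch1 and Inmt, the most abundant of the list, did not pass the test against the Cxcl14-free cells (log2 differences -0.12 and -0.02).
With the Cxcl14-positive cells as reference, the lower genes with the largest fold change, apart from Sftpc, were Ryr3, Tmem117, Cntn1, B530045E10Rik, Fat3, Colq and Slc7a10. Fat3 was at 253, 306, 345, 256, 257 and 224 CPM in the members of the 6 libraries and at 713 ± 97.4 CPM in the Cxcl14-positive cells (log2 difference -1.39, SE 0.11, edgeR adjusted p = 1.14e-06), lower in 6 of 6 libraries. Slc7a10 was at 133 ± 24.2 against 315 ± 44.5 CPM (log2 difference -1.25, SE 0.10).

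Of 19 adventitial genes tested, 14 were higher in the members than in the Cxcl14-free cells and 0 lower (median log2 difference 1.14), and 13 were higher and 0 lower against the Cxcl14-positive cells. Against the adventitial cells themselves 19 of 20 were lower and 1 higher, beside 29.7% and 29.1% of all genes. Of the peribronchial list, genes of airway-sheath fibroblasts, 3 of 7 were higher and 0 lower than in the Cxcl14-free cells (median log2 difference 0.07), 5 of 8 were higher and 0 lower than in the Cxcl14-positive cells (median 0.87), and 2 of 8 were higher and 6 lower than in the adventitial cells (median -1.61). C3, the central complement component, was at 1068 ± 154 CPM in the members, 458 ± 52.9 in Cxcl14-free and 558 ± 63.2 in Cxcl14-positive alveolar cells, and 3676 ± 360 in adventitial cells. Sfrp1, a secreted Wnt antagonist, was at 105 ± 21.7, 22.0 ± 5.88, 43.6 ± 3.78 and 268 ± 56.4 CPM in the same order. Ptgis, prostacyclin synthase, was the gene of the list above the adventitial level (578 ± 55.2 against 284 ± 31.6 CPM). The Cxcl14-free cells, at 498 CPM, were above that level too.

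Decorin (Dcn), a collagen-binding proteoglycan that is among the highest adventitial genes, was uneven among the members. Its mean was 456 ± 190 CPM against 12172 ± 566 in adventitial cells. No Dcn UMI was found in 409 members, 1 to 9 in 329, 10 to 39 in 110 and 40 or more in 89, while 97.0% of adventitial and 3.98% of Cxcl14-positive alveolar cells held 10 or more. The 199 members with 10 or more (21.2%; 13.1% to 28.0% by library) thus carried an adventitial gene at a level that the gate on Pi16 and Ccl11 had not removed. Without them Dcn was lower in the members than in the Cxcl14-free cells (log2 difference -1.86) where it had been higher (1.38, edgeR adjusted p = 0.00118). That limit caps the gene itself, and in the members only. The Cxcl14-free cells kept their 69 cells (2.91%) with 10 or more Dcn UMIs, so the change of sign cannot be read as a result.

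Position between the 2 populations was measured for each list gene as the share of the log2 distance from the Cxcl14-free alveolar to the adventitial level. Of the 20 alveolar genes, 17 lay between, at a median of 11.5% of the way. Of the 20 adventitial genes, 15 lay between, at a median of 18.9%. Adh1, an alcohol dehydrogenase, at 62.6% and Sfrp1 at 62.2% were farthest along. Some genes ran against their list. Adh1 and Gpc3 of the alveolar list were lower in the Cxcl14-free cells (148 and 473 CPM) than in the adventitial cells (395 and 628 CPM). Ptgis of the adventitial list was higher in the Cxcl14-free than in the adventitial cells (498 against 284 CPM). These genes were kept in the counts and medians. Fgf10, a growth factor for epithelial progenitors, was higher in the members (423 CPM) than in either population (277 and 142 CPM). Among all genes called in both comparisons, 2365 of 2991 (79.1%) lay between the populations. These 2991 are 25.6% of the 11682 genes tested in both, so the count says nothing of the position of the other 8691. The median positions of both lists lay nearer to the alveolar side. The gate demands Tcf21 and Npnt and forbids Pi16, and the adventitial cells were chosen without Npnt, which fixes part of that position.

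Against the alveolar cells more matrix genes were called higher than lower, and against the adventitial cells more were called lower than higher. Against the Cxcl14-free cells 17 of 26 collagen genes were higher and 2 lower. The counts were 19 of 28 higher and 3 lower against the Cxcl14-positive cells. Set against the adventitial cells, 8 of 27 were higher and 12 lower, beside 29.1% and 29.7% of all genes. The collagens higher there were thus near the share over all genes. Col1a2 was at 1107 ± 157 CPM in the members against 633 ± 110 in the Cxcl14-free and 2387 ± 261 in the adventitial cells, and Col3a1 at 1033 ± 248 against 555 ± 157 and 1773 ± 213. Of 20 elastic fibre genes 13 were higher and 2 lower (11 and 4 against the Cxcl14-positive cells), and 7 of 20 were higher and 13 lower than in the adventitial cells. Elastin (Eln), which is among those 7, at 1208 ± 363 CPM, was above both the Cxcl14-free alveolar (674 ± 204; log2 difference 0.86, SE 0.06) and the adventitial level (731 ± 155; log2 difference 0.64, SE 0.18, edgeR adjusted p = 0.00923).
Among the metalloproteinases and their inhibitors other than Mmp3, 12 of 28 were higher and 9 lower (15 and 9 of 30 against the Cxcl14-positive cells, 9 and 18 of 29 against the adventitial cells). The inhibitors stood among the higher: Timp1 at 69.6 ± 24.8 against 9.19 ± 3.39 CPM (log2 difference 2.94, SE 0.08), Timp3 at 1691 ± 168 against 796 ± 65.0 CPM and Timp2 at 578 ± 29.5 against 454 ± 41.5 CPM. Adamts9, a protease that cuts versican, was lower (715 ± 127 against 881 ± 154 CPM).

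Several genes with a large difference from the alveolar cells were also set beside the adventitial level. Clec11a, a secreted C-type lectin, was at 82.9, 102, 56.1, 58.2, 49.2 and 46.6 CPM in the 6 libraries, against 7.17 ± 3.44 in Cxcl14-free cells, 13.0 ± 3.90 in Cxcl14-positive cells and 75.0 ± 19.7 in adventitial cells. The members were higher than the Cxcl14-positive cells in 6 of 6 libraries (log2 difference 2.35, SE 0.09, edgeR adjusted p = 9.12e-09) and not called against the adventitial cells (-0.24, SE 0.11, adjusted p = 0.0750). Fxyd6, a regulator of the sodium pump, Shisa9, an AMPA receptor partner, Gabra3, a GABA receptor subunit, and the protocadherin Pcdh9 were higher by 2.30 to 2.83 on the log2 scale against the Cxcl14-positive cells. They were at 67.1, 83.7, 103 and 74.3 CPM in the members and at 80.1, 89.7, 227 and 171 CPM in the adventitial cells. Against the adventitial cells Fxyd6 (log2 difference -0.33), Gabra3 (-1.22) and Pcdh9 (-1.30) were called lower by edgeR, and Shisa9 was not called (-0.20, adjusted p = 0.407). Cxcl12, the ligand of Cxcr4, stood at 113 ± 19.5 CPM against 23.0 ± 6.96 and 30.7 ± 3.18 in the alveolar cells and 378 ± 80.0 in the adventitial cells.

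Inflammatory lists were compared next. Of 18 genes of the NF-kB feedback list 12 were higher and 0 lower (12 and 0 of 19 against the Cxcl14-positive cells), of 25 genes of the inflammatory secretome 17 and 2 (16 and 3 of 26), of 15 complement genes 11 and 1 (11 and 1 of 17), and of 30 interferon-response genes 12 and 1 (15 and 1 of 34). The median log2 differences against the Cxcl14-free cells were 0.32, 0.60, 0.62 and 0.29. Against the adventitial cells, 5 of 18 NF-kB genes were higher and 8 lower, and 11 of 26 secretome genes higher and 6 lower. There 3 of 16 complement genes were higher and 12 lower, and 1 of 31 interferon-response genes higher and 22 lower. Over all genes 29.1% were higher and 29.7% lower in that comparison, so the NF-kB genes higher were near that share. Il6 was at 86.8, 186, 118, 233, 167 and 191 CPM in the members by library, against 70.3 ± 14.9 CPM (log2 difference 1.22, SE 0.12). It was higher still, at 414 ± 24.4 CPM, in adventitial cells. Vcam1, an adhesion molecule for leukocytes, was at 481 ± 68.7 CPM and above both the Cxcl14-free (256 ± 17.2) and the adventitial level (302 ± 21.9). Of the 24 genes of the senescence and p53 list, 3 were higher and 7 lower, with a median of -0.08, and against the Cxcl14-positive cells 6 of 25 were higher and 6 lower, with a median of -0.04. Cdkn1a (p21) was at 139 ± 10.7 CPM in the members and 129 ± 13.0 in the Cxcl14-free cells (log2 difference 0.15, SE 0.08, edgeR adjusted p = 0.158), and it was called higher against the Cxcl14-positive cells (0.45, adjusted p = 0.00330).
Igfbp7 and Igfbp6, binding proteins of insulin-like growth factors, were higher (log2 differences 1.20 and 1.51) and Igfbp3 was lower (-0.82). In the IGF list 7 of 12 genes were higher and 2 lower (8 and 2 of 12 against the Cxcl14-positive cells). The TGF-beta and BMP list had 18 of 32 higher and 6 lower (15 and 7 of 33), and the Wnt list 9 of 22 and 6 (11 and 7 of 26). Against the adventitial cells 4 of 12 IGF genes were higher and 6 lower. The counts there were 12 and 13 of 33 for the TGF-beta and BMP list and 7 and 13 of 25 for the Wnt list. Over all genes 29.1% were higher and 29.7% lower, and the IGF and Wnt genes higher were near that share.

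A smaller set exceeded both the Cxcl14-free and the adventitial cells: 437 of 11682 genes (3.74%) were called above both and 189 (1.62%) below both. Cxcl14-positive and Hhip cells were not part of this count, so it does not show genes particular to the members. Ppp1r3a was the clearest, with 165, 186, 73.8, 99.5, 220 and 162 CPM by library, against 19.1 ± 6.31 in the Cxcl14-free and 3.05 ± 2.42 in the adventitial cells. All 6 members' values lay above all comparison values (log2 differences 2.98, SE 0.23, and 5.30, SE 0.29; edgeR adjusted p = 1.76e-06 and 3.38e-08). With each cell thinned to 5000 UMIs, a Ppp1r3a UMI was found in 26.4% of 927 members (95% Wilson interval 23.7% to 29.4%), in 3.52% of Cxcl14-free cells, 1.46% of adventitial cells and 0.133% of endothelial cells. It thus marked about as large a share of members as Itgbl1 did (29.0%). Hmcn1, a large basement membrane protein (696 ± 108 CPM against 324 ± 21.6 and 268 ± 38.3), Brinp1, Tex15, Gm13889 and the kinase Sgk1 also exceeded both. The rule that picked the genes above both was set after the data were seen.
Saa3, an acute-phase protein, had the largest fold change (138 ± 110 against 5.67 ± 5.17 CPM; log2 difference 4.55, SE 0.49), but it came from few cells. In 3 libraries 1 cell held 947, 1138 or 834 of 998, 1226 or 841 Saa3 UMIs, and 6 to 12 cells per library held any. At 5000 UMIs per cell its share was 2.37% of members and 2.01% of adventitial cells, with Wilson intervals of 1.57% to 3.57% and 1.33% to 3.02%. In the Cxcl14-free cells the share was 0.926%, with an interval of 0.600% to 1.43%. These intervals pool the cells of 6 mice and cover counting error only. By library the shares overlapped, at 0.962% to 3.38% of members and 0.372% to 1.58% of Cxcl14-free cells.

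The members' share of Tcf21 Npnt fibroblasts was compared between the groups. By the gate on all UMIs, it was 5.80%, 10.2% and 7.92% in the p16-DTR-labelled libraries and 5.10%, 5.52% and 6.64% in the control libraries. Means were 7.97% ± 2.20 and 5.75% ± 0.794 (SD, n = 3 each), and the groups overlapped. With each cell thinned to 5000 UMIs and the gate applied to the thinned counts, the shares were 1.92%, 2.87% and 2.82% against 1.48%, 2.21% and 1.89%. The difference of 0.676 percentage points did not pass an exact two-sided permutation test (p = 0.2; 3 against 3 libraries cannot go below 0.1). A difference in either direction was not detectable with these 6 mice. Thinning lowers every count, so cells pass the absence conditions more easily and the presence conditions less.

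**Figure D3:**
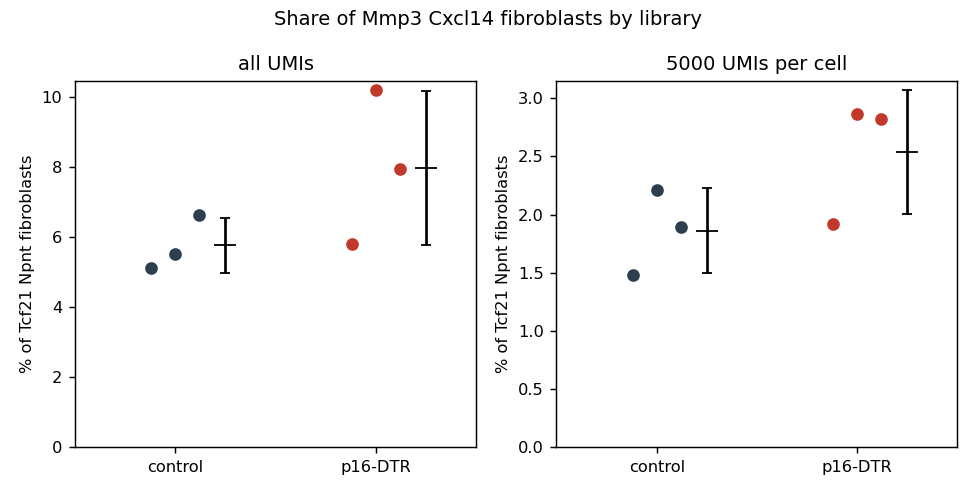
Mmp3 Cxcl14 fibroblasts as percent of Tcf21 Npnt fibroblasts by library, with the gate on all UMIs (left) and on 5000 UMIs per cell (right; axes differ); bars are the mean ± SD of 3 libraries. On the left the lowest library labelled p16-DTR (5.80%) lies below the highest control library (6.64%), and the groups overlap on the right too.

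Mmp3 and Cxcl14 themselves were compared between the groups in all Tcf21 Npnt fibroblasts, which were not chosen by them. There 447 of 16440 genes differed by edgeR (2.72%), 134 higher (0.815%) and 313 lower (1.9%) in the p16-DTR-labelled libraries, a count that fell to 1 without the third p16-DTR library and to 6 without the third control library. Mmp3 was not called (log2 difference 0.62, SE 0.30, adjusted p = 0.256), nor was Cxcl14 (0.06, SE 0.08, adjusted p = 0.716), Mgp (0.51, SE 0.17, adjusted p = 0.128) or Itgbl1 (0.48, SE 0.14, adjusted p = 0.102). Mfap5 was called higher (0.63, SE 0.08, edgeR adjusted p = 0.0280) and lost the call without the third p16-DTR library (adjusted p = 0.114) or the third control library (adjusted p = 0.0872). Within the members, Mgp, Mfap5 and Itgbl1 had log2 differences of 0.31, 0.43 and 0.40 and were not called by edgeR (adjusted p = 0.607, 0.129 and 0.204). DESeq2 called 1 of these 3 higher in the members, beside 0.569% of all genes. In all Tcf21 Npnt fibroblasts it called 3 of the 5 genes Mmp3, Cxcl14, Mgp, Mfap5 and Itgbl1 higher, beside 3.33% of all genes. Markers of other cell types moved with this comparison in all Tcf21 Npnt fibroblasts. Of the 7 mesothelial markers 5 were called lower and 0 higher by edgeR (median log2 difference -2.87, 7 of 7 below 0), with a summed level of 240 to 304 CPM in the p16-DTR-labelled and 266 to 326 CPM in the control libraries. Of the 8 epithelial markers 1 was called lower by edgeR and 4 by DESeq2 (median -1.32, 8 of 8 below 0; DESeq2 called 5.63% of all genes lower), with sums of 323 to 608 and 327 to 1527 CPM. No marker of these lists was at 0 throughout, and their part in the other differences was not tested. A bulk sum cannot tell more cells of a kind from more RNA per cell.

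Within the members, 26 of 11765 genes differed between the groups by edgeR (0.221%), 7 higher (0.0595%) and 19 lower (0.161%) in the p16-DTR-labelled libraries. The 7 higher genes were Cdkn2a, Ltbp2, Abca8b, Kdelr3, Hspb1, Pdpk1 and Dkk3. The 19 lower included Tgfb2 (a TGF-beta ligand), Gadd45b (a stress sensor that NF-kB induces), Ripk1 and Traf3ip2 (adaptors of TNF and interleukin-17 signalling), Nr3c2 (the mineralocorticoid receptor), the neuregulin Nrg2 and Insig1 (a brake on sterol synthesis). Most of these calls were fragile: the count was 1 without the first p16-DTR library, 2 without the third p16-DTR library, 4 without the first and 2 without the third control library, and 48 without the second control library. Groups without overlap were found for all 26 genes, and for 9.08% of all genes on the higher and 8.26% on the lower side.

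Cdkn2a, the gene of p16, was higher in the members of the p16-DTR-labelled libraries, against a design meant to remove p16-high cells. It was at 7.81, 7.93 and 3.65 CPM there and at 0.179, 0 and 0 CPM in the control libraries, that is 81 UMIs in 54 of 455 cells against 1 UMI in 1 of 482 cells. The ratio of the pooled levels was 83.8 with a 95% counting interval of 14.6 to 3350, which covers counting error only. The log2 difference of 5.90 (SE 0.73, edgeR adjusted p = 0.0281) kept its direction in all 16 alternatives fitted and lost the call in 5. It was not limited to the members: in all Tcf21 Npnt fibroblasts the log2 difference was 5.87 (SE 0.38, adjusted p = 0.00611). At 5000 UMIs per cell, a Cdkn2a UMI was found in 2.24%, 4.69% and 1.63% of members in the p16-DTR-labelled libraries and in 0.483% of the members of control library 1. In the other control libraries it was in 0 of 104 and 0 of 167 members, which allows shares of up to 2.88% and 1.80%. In Ptprc leukocytes it was found in 3.42% to 4.91% against 0.174% to 0.530% of cells, and in Cdh5 endothelial cells in 2.04% to 2.87% against 1.06% to 1.46%. The members' shares in the p16-DTR-labelled libraries rest on 3, 9 and 2 cells, too few to order them against those of the other cells. The feature named tdTomato, also counted in the files, had 4 UMIs in 3 members of the p16-DTR-labelled libraries and 0 UMIs in members of the control libraries, and 10 against 0 UMIs in the Cxcl14-free and 3 against 0 in the adventitial cells. Reads at the 3′ end do not tell the p16 transcript from the p19Arf transcript of the locus.

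Ltbp2, a protein of the latent TGF-beta binding family that sits on elastic microfibrils, was the firmest difference. It was at 48.3, 50.6 and 60.6 CPM in the members of the p16-DTR-labelled libraries and at 8.41, 10.6 and 14.5 CPM in those of the control libraries. The groups lay far apart (log2 difference 2.25, SE 0.19, edgeR adjusted p = 0.00216), and the call was made in all 18 alternatives, including those without each library in turn (adjusted p up to 0.0228) and without the members high in Dcn (log2 difference 2.26). A Ltbp2 UMI was found in 23 of 135, 43 of 194 and 43 of 126 members against 15 of 207, 9 of 107 and 15 of 168, and the 5 highest cells of a library held 38.9% to 63.8% and 71.0% to 86.2% of its Ltbp2 UMIs. In all Tcf21 Npnt fibroblasts the log2 difference was 1.49 (SE 0.34, adjusted p = 0.0625), not called, and it did not differ detectably between the members and the Cxcl14-free cells (difference of log2 differences -0.05, adjusted p = 1). Ltbp2 is also on the peribronchial list, of which 1 of 7 genes tested was called, Ltbp2 itself; the list summed to 317 to 491 CPM in the p16-DTR-labelled libraries and 275 to 313 in the control libraries, and its part in the result was not tested.

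**Figure D4:**
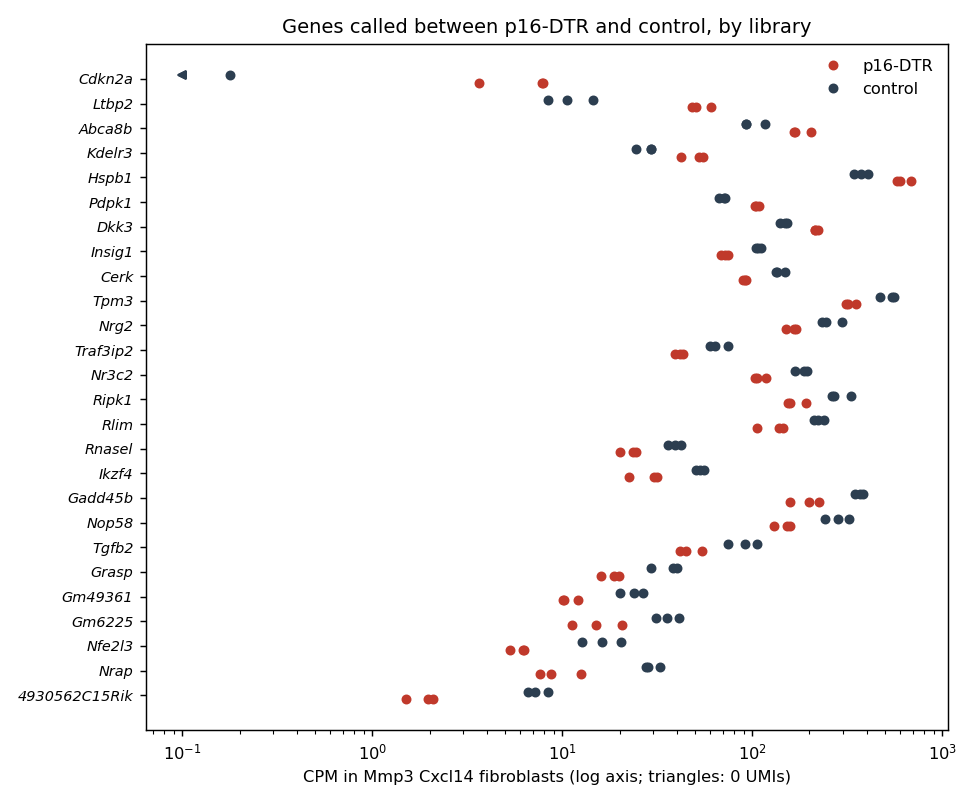
CPM (log axis) of the 26 genes called between the groups in the Mmp3 Cxcl14 fibroblasts, one point per library, ordered by log2 difference; triangles at the left edge are libraries with 0 UMIs. The 2 groups of 3 libraries do not overlap for any of the 26 genes, and Cdkn2a and Ltbp2 have the widest gaps on the higher side.

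Tgfb2 was at 44.7, 54.2 and 41.8 CPM in the p16-DTR-labelled libraries and at 106, 91.1 and 74.9 CPM in the control libraries (log2 difference -0.95, SE 0.15, edgeR adjusted p = 0.0397). It kept the call when 1 of the 6 libraries was left out in turn and lost it for the other 5 (adjusted p up to 0.124). Gadd45b was at 225, 158 and 198 against 385, 371 and 348 CPM (-0.94, SE 0.12, adjusted p = 0.0281), with 2 of 6 such calls kept. Nrap, a muscle actin-anchoring protein, was at 8.71, 12.5 and 7.58 against 28.3, 32.8 and 27.6 CPM (-1.59, SE 0.19, adjusted p = 0.0281), also with 2 of 6 kept. In the Cxcl14-positive alveolar cells Nrap was at 7.29, 6.81 and 5.97 against 13.3, 9.17 and 8.57 CPM. Hspb1, the small heat shock protein Hsp27, was higher at 575, 599 and 685 against 343, 406 and 373 CPM (0.72, SE 0.10, adjusted p = 0.0397), with 2 of 6 kept. All named values kept their direction in these fits.

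Few list genes passed the test between the groups. Over all 11765 genes, 12.3% had an unadjusted p under 0.05 by edgeR, and DESeq2 called 0.569% higher and 1.18% lower, with no adjusted p for 3879 genes. None of the 18 genes of the NF-kB list was called by edgeR in the members, 8 had an unadjusted p under 0.05 and DESeq2 called 5, all lower. The list's median log2 difference was -0.33, with 16 of 18 genes below 0, beside a median of 0.00 over all genes. A lower level was not limited to the members. The list summed to 2551 to 2819 CPM in the p16-DTR-labelled and 2900 to 3196 CPM in the control libraries in Cxcl14-free cells. In adventitial cells the sums were 2642 to 3281 against 3567 to 3650 CPM. In all Tcf21 Npnt fibroblasts 15 of 19 genes were below 0, with a median of -0.07. Within the members values below 0 were also common in other lists, among them 10 of 15 complement, 11 of 18 adventitial and 15 of 25 secretome genes. The immediate early list had a median of -0.23 with 22 of 31 genes below 0, of which edgeR called 1 higher and 0 lower (11 at an unadjusted p under 0.05), and DESeq2 called 2 higher and 6 lower. The alveolar list had a median of -0.19 with 17 of 20 genes below 0, of which edgeR called 0 (10 at an unadjusted p under 0.05) and DESeq2 3, all lower. The part of these lists in the NF-kB values was not tested. Of the 24 collagens 0 were called by edgeR (10 at an unadjusted p under 0.05; DESeq2 called 3, all lower), and of the 25 genes of the inflammatory secretome 0 (4 at an unadjusted p under 0.05, near the share over all genes; DESeq2 called 1 higher and 1 lower). Of the 20 elastic fibre genes 1 was called by edgeR, Ltbp2 (7 at an unadjusted p under 0.05, and DESeq2 called 2 higher and 0 lower). Their median was 0.26, with 17 of 20 above 0. Cxcl1, a neutrophil chemokine that NF-kB induces, was at 23.4, 31.4 and 18.5 CPM in the p16-DTR-labelled libraries and at 271, 99.5 and 70.6 CPM in the control libraries. The groups did not overlap, and the test fell just short (log2 difference -2.60, SE 0.45, edgeR adjusted p = 0.0531). Lower Cxcl1 was not limited to the members. In the Cxcl14-positive alveolar cells it was at 17.8, 10.9 and 15.7 against 91.1, 51.8 and 33.4 CPM. In the Cxcl14-free cells it was at 49.7, 22.4 and 24.9 against 97.9, 46.7 and 28.0 CPM, and the groups overlapped. The 5 highest members of a library held 69.2% to 92.4% of its Cxcl1 UMIs in the p16-DTR-labelled libraries. In the control libraries they held 29.8% to 62.6%. Cdkn1a did not differ detectably (-0.03, SE 0.10, adjusted p = 0.946).

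The effect of the group was called as different in the members and in the Cxcl14-free alveolar cells for 2 of 13017 genes (0.0154%), Cxcl10 and Thsd7a, both with a more negative effect in the members. With the Cxcl14-positive alveolar cells in their place neither gene was called (adjusted p = 0.868 and 0.197). For the other genes edgeR's main fit detected no difference at this depth, with 107 to 207 members and 2744816 to 5587427 summed UMIs per library. DESeq2 called 11 genes and edgeR without the filter on low counts called 248, each with the same 2 among them.

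The whole data set held 13482 to 17332 barcodes and 254200305 to 344421685 UMIs per library. Pairs of libraries shared 59 to 94 barcodes, and none of these was a member in both. Within-group pairs of libraries differed beyond counting error over genes (chi-square per degree of freedom 3.84 to 7.01) for every such pair. In the members, markers of other cell types summed to 350 ± 79.1 CPM for 10 peribronchial, 227 ± 59.9 CPM for 8 smooth muscle, 121 ± 27.0 CPM for 8 pericyte and 107 ± 23.4 CPM for 8 epithelial genes. The sum was 40.6 ± 9.07 CPM for 7 endothelial and 37.3 ± 3.29 CPM for 7 leukocyte genes outside the gate, and 178 ± 38.0 CPM for the mesothelial list, nearly all of it Upk1b (178 CPM), which the Cxcl14-free alveolar cells carried at 314 CPM, while 2 of its 7 genes were at 0. Of the 937 members 26 (2.77%) were predicted doublets, against 1.39% of the Cxcl14-free, 2.52% of the Cxcl14-positive and 0.0887% of the adventitial cells.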

How the data were processed

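Single-cell counts came from 6 lungs, 1 library per mouse. The deposited matrices hold UMI counts per gene and barcode, made with Cell Ranger 8.0.1 and the mm10 build per the submitters' processing notes; other settings are not given in the sources used here. A barcode was kept with 500 or more genes, 1000 or more UMIs and no more than 15% of UMIs from mitochondrial genes. Of 31054 features, 30934 matched GENCODE M21 by gene identifier.

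The members, gene lists and comparisons were chosen with earlier results of these data known. Groups follow the labels. Alveolar comparison cells met the member rule with no Mmp3 and with or without Cxcl14. Adventitial cells had Pdgfra and Pi16 and no Npnt, Cdh5 or Ptprc. They were the 1128 cells without an Npnt UMI among 2432 Pi16-positive fibroblasts, and the nearest-neighbour shares count all 2432. Raw counts were summed per library and population and tested with edgeR 4.0.16 in R 4.3.3 (filterByExpr, TMM, quasi-likelihood test, Benjamini-Hochberg adjusted p under 0.05 over all genes tested). The mouse was a block where populations were compared. Gate genes were left out of tests of gated cells. P-values between the groups measure the spread between these 6 mice. Where the mouse was a block, they measure the spread of the differences within mice. Nearest neighbours were found on 30 principal components, and CPM is scaled to 1000000 UMIs of the summed cells.

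Shares of cells were computed at 5000 UMIs per cell; 10 shallower members were left out there. Doublets were predicted from simulated doublets at 0.4% per 1000 barcodes and kept, with their removal as an alternative. Intervals are 95% and cover counting error only. Named genes were up to 8 per direction with the largest log2 change among called genes with the same direction in all libraries, up to 5 for the difference between effects, up to 4 of each list by level, and the markers; genes singled out of a list or position for their value, and those above both populations, were named after their values were seen. Alternatives were DESeq2 1.42.0, other size factors, no filter, a replicate block, each library left out, equal cell numbers, thinned counts, and other limits on Mmp3, mitochondrial UMIs and doublets; comparison with Cxcl14-positive cells and leaving out members high in Dcn were added after the data were seen. Other steps used scikit-learn 1.9.0, scipy 1.17.1 and numpy 2.4.6 in Python 3.11.15.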

Additional observations from a re-analysis of the deposited data

Results flagged for a closer look

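The effect of the p16-DTR label differed between the Mmp3 Cxcl14 fibroblasts and the Cxcl14-free alveolar fibroblasts for 2 genes by edgeR's interaction test. Cxcl10, an interferon-induced chemokine, had a difference of -3.191 on the log2 scale (SE 0.31, edgeR adjusted p = 0.00403). It was at 3.90, 19.5 and 8.42 CPM in the members of the p16-DTR-labelled libraries and at 20.2, 18.6 and 23.4 CPM in those of the control libraries, while the Cxcl14-free cells had 44.7, 87.8 and 83.6 against 16.2, 9.96 and 20.1 CPM. The 5 highest cells of a library held 77.0% to 96.7% of the members' and 49.0% to 94.9% of the Cxcl14-free cells' Cxcl10 UMIs, and their part in the result was not tested. With Cxcl14-positive comparison cells the difference was -1.12 (adjusted p = 0.868), and with equal numbers of cells the adjusted p was 0.291.

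Thsd7a, a thrombospondin-domain membrane protein, had a difference of -1.45723 on the log2 scale (SE 0.19, edgeR adjusted p = 0.0490). It was at 59.1, 67.8 and 77.8 against 73.7, 76.1 and 139 CPM in the members and at 46.0, 85.0 and 116 against 31.3, 30.4 and 61.0 CPM in the Cxcl14-free cells. The call was lost with DESeq2-type size factors (adjusted p = 0.0503), with library size alone (0.0515), with Cxcl14-positive comparison cells (0.197) and with equal numbers of cells (0.291). It was also lost without the second p16-DTR library (0.119) and without each control library (0.0777, 0.303 and 0.231). Cxcl10 kept its call without each library in turn (adjusted p up to 0.0346).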

How the results depend on the processing

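The count of genes called between the groups in the members (26) was 206 with DESeq2, 674 without the filter on low counts, 76 with Mmp3 at 1 UMI or more, 12 at 3 or more, 5 with equal numbers of cells, 73 with thinned counts, 57 without predicted doublets, 13 without the members high in Dcn (added after the data were seen), and 1 to 48 with each library left out. The number in the labels did not pair the samples: same-numbered libraries had correlations of deviations of 0.0447, -0.0746 and -0.0394. With the replicate block 2 genes were called in the members and 443 in all Tcf21 Npnt fibroblasts, of which 1 and 263 were among the genes called without it. In all Tcf21 Npnt fibroblasts (447) the count was 1472 with DESeq2, 847 without the filter, 261 without predicted doublets, 189 with thinned counts, and 1 to 244 with each library left out. Against the Cxcl14-free cells (4078) and the adventitial cells (7094), thinned counts gave 2340 and 3853. The count of different effects (2) was 1 with DESeq2-type size factors, 1 with library size alone, 11 with DESeq2, 248 without the filter, 0 with equal cells, 5 with thinned counts, 6 with Mmp3 at 1 UMI or more, 1 with Cxcl14-positive cells, and 1 to 5 with each library left out. Log2 differences against the alveolar cells changed sign for 3 genes: Dcn (-1.86 without members high in Dcn), Acta2 (0.62) and Ogn (-0.037), the last 2 with Cxcl14-positive cells. For Dcn the limit was set on the gene itself and on the members alone. The causes for Acta2 and Ogn were not tested. Over the named genes, 1966 of 2047 alternative values against alveolar and 2149 of 2203 against adventitial cells kept their call, as did 250 of 462 between the groups in the members and 254 of 403 in all Tcf21 Npnt fibroblasts. For the share of members, the groups did not overlap without the first p16-DTR library (p = 0.1) or the second control library (p = 0.2, exact permutation tests).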
